A study of Homo sapiens with 8 samples.

Results

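Expression of 40 genes encoding collagens, laminins and matrix glycoproteins was examined in CAPAN-2 cells, an established human pancreatic cancer cell line, after stable knockdown (KD) of ErbB2 or MUC4. A gene was taken as a member by its symbol alone. Each array probe was given a current symbol through its accession, which left 64 probes for 38 of the 40 genes among 17240 symbols on the array. No probe was matched to COL1A1 or COL13A1. The 8 Agilent arrays with 2 dyes held 4 for each knockdown. ErbB2-KD cells carry a stably transfected shRNA against ErbB2 and were selected with puromycin, and RNA of 1 clone per array (EV7, EV12, EV9 and EV18 on arrays 1 to 4) was compared with a pool of 4 NT clones that carry the empty vector. MUC4-KD cells were made by retroviral infection with an shRNA against MUC4 and G418 selection, and their clones, which the labels do not name, were compared with a pool of 4 Mock clones with the empty vector. All clones were raised by limiting dilution from the same line, so a clone can differ from its control in more than the targeted gene.

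Collagens are trimers of alpha chains. Fibrillar collagens (types I, III and V) form the fibres of the interstitial matrix, type IV collagen forms the sheet of the basement membrane, and other types anchor, link or cap these networks. Laminins are trimers of an alpha, a beta and a gamma chain that lie against the basal side of epithelia and bind cell receptors. Nidogens, perlecan and agrin tie laminin to collagen IV, while fibronectin, tenascin, thrombospondin, fibrillin and fibulin are matrix glycoproteins that organise fibres or modulate adhesion. In pancreatic cancer most fibrillar collagen is made by stromal cells, and the carcinoma cells make much of the laminin at their own border.

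The targeted genes were read first. The brightest ERBB2 probe had log2 ratios, ErbB2-KD over NT, of -0.58, -0.32, -0.33 and -0.38 on arrays 1 to 4, lower on 4 of 4 arrays without passing (limma adjusted p = 0.145), and the other ERBB2 probe was at 0.04. The brightest MUC4 probe (A_24_P239176) was at 0.47, 0.39, 0.28 and -0.05 on the MUC4-KD arrays when the ratio was taken as labelled, knockdown over Mock, and did not pass (mean 0.27, limma adjusted p = 0.167). Of its 3 other probes, A_24_P208825 was at 1.71, 2.34, 2.21 and 1.08 (mean 1.84, limma adjusted p = 0.00804), A_24_P239183 passed at a mean of 1.34 (0.0355), and the last was at 0.41 (0.0984). The probes that passed were thus higher, and no mean was lower, in the RNA labelled as the knockdown. This goes against the label, and the study's own listing of this experiment runs in the opposite direction. Ratios of that experiment are kept as labelled here, with the labelled knockdown as numerator, and each direction would turn if the labels of the dyes were exchanged. A channel had from 58.0% to 74.9% of its probes well above background, the fewest on MUC4-KD array 4. ErbB2-KD array 2 was the brightest, with median intensities of 248 in Cy3 and 593 in Cy5. On the other arrays these ran from 100 to 119.5 and from 158.25 to 201. Since each ErbB2-KD clone was on 1 array, a clone cannot be told apart from its array. Of the markers of ductal epithelium, 9 of 10 were well above background in all 16 channels. Of the 6 leukocyte markers CD68 and CD14 were, and of the 7 acinar and the 6 endothelial markers, none was.

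Of the 38 matrix genes with a probe, 30 could be tested, a test being made where 1 probe was well above background on all 4 arrays of the knockdown or of its control. In ErbB2-KD 27 genes were tested and in MUC4-KD 30. All laminin chains except LAMA4, all 4 collagen IV genes, and COL5A1, COL6A1, COL6A2, COL7A1, COL8A1, COL9A2, COL12A1, COL16A1 and COL18A1 were well above background on 4 of 4 arrays in every RNA. There were 8 genes with no test in either experiment. COL1A2 was well above background on 1 array in ErbB2-KD and NT and on 0 in MUC4-KD and Mock. COL3A1 was detected on at most 2 of 4 arrays, COL6A3 and SPARC on at most 3, and LAMA4 and NID2 on at most 2. NID1 (nidogen-1) and SPP1 (osteopontin, a secreted phosphoprotein) were well above background in no channel. COL5A2, COL17A1 and TNC were detected on 4 arrays of the MUC4-KD experiment and were not tested in ErbB2-KD. The collagens detected in every RNA were thus those of the basement membrane and the network-forming, anchoring and fibril-associated types with COL5A1, while COL1A2 and COL3A1 of the interstitial types I and III were at or near background.

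**Figure D1:**
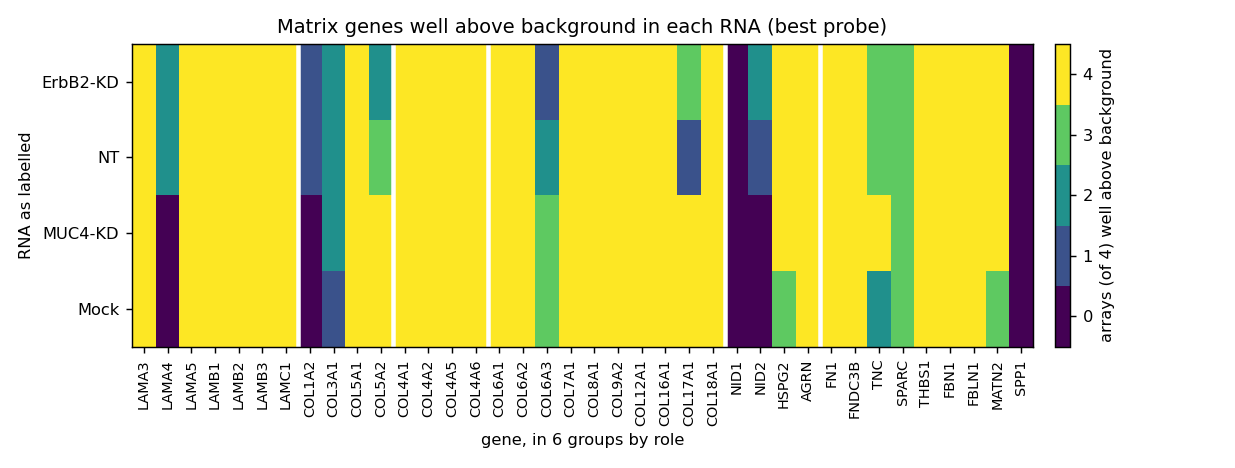
Number of arrays, of 4, on which the best probe of each of the 38 matrix genes was well above background (colour) in ErbB2-KD, NT, MUC4-KD and Mock RNA (rows). White lines separate 6 groups by role. Most columns are at 4 in all rows, NID1 and SPP1 are at 0 in all rows, and COL1A2 and COL3A1 reach at most 1 and 2.

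Mean ratios of the matrix genes lay mostly below 0 in ErbB2-KD and mostly above 0 in the RNA labelled MUC4-KD. In ErbB2-KD, 19 of the 27 tested genes had a mean below 0 and the median of the 27 was -0.46 on the log2 scale, beside -0.01 over all probes tested. Array medians were -0.48, -0.86, -0.30 and -0.08. In the other experiment 23 of 30 genes had a mean above 0 and the median was 0.50, beside 0.01 over all probes, with array medians of 0.66, 0.49, 0.59 and 0.20. The ErbB2-KD median rested in part on array 2 and was -0.10 without it.

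In ErbB2-KD 5 of the 27 genes passed an adjusted p of 0.05 (limma, Benjamini-Hochberg over all probes tested), where 1.94% of all genes did. The members were chosen with earlier results of these data known. Shares set beside those of all genes therefore describe the list and do not test it. LAMA3 and COL8A1 rose, as did 0.749% of all genes, and COL5A1, COL7A1 and FBLN1 fell, as did 1.19%. In the RNA labelled MUC4-KD 10 of 30 genes passed, where 23.1% of all genes did, so that the share of matrix genes was nearer to the background than in ErbB2-KD. LAMA3, LAMB1, COL4A1, COL4A5, COL6A1, COL6A2, COL8A1, COL16A1 and FNDC3B were higher, 9 of 30 beside 12.2% of all genes, and THBS1 was lower, 1 of 30 beside 10.9%. In RNA of whole cultures, less RNA per cell and fewer cells that express a gene cannot be told apart. These p-values measure the spread between 4 clones or arrays and leave out that between control clones, which were pooled. Calls in ErbB2-KD were sensitive to single arrays. Of the 43 matrix probes tested, 7 passed with 4 arrays (1.43% of all probes did), 0 without array 1, 9 without array 2, 0 without array 3 and 1 without array 4. Over all probes 342 passed with 4 arrays, and 0, 487, 4 and 33 did without arrays 1, 2, 3 and 4. In MUC4-KD 11 of 45 matrix probes passed with 4 arrays (20.5% of all probes did), 3 without array 1, 4 without array 2, 1 without array 3 and 22 without array 4. Over all probes 5131 passed there with 4 arrays, and 588, 960, 154 and 9347 did without arrays 1, 2, 3 and 4. The matrix counts thus moved with those of the whole array. With median centring instead of a loess curve, limma called 1 matrix probe in ErbB2-KD and 0 in MUC4-KD, where 23 and 6 had an unadjusted p under 0.05. Over all probes it then called 31 in ErbB2-KD and 1 in MUC4-KD.

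**Figure D2:**
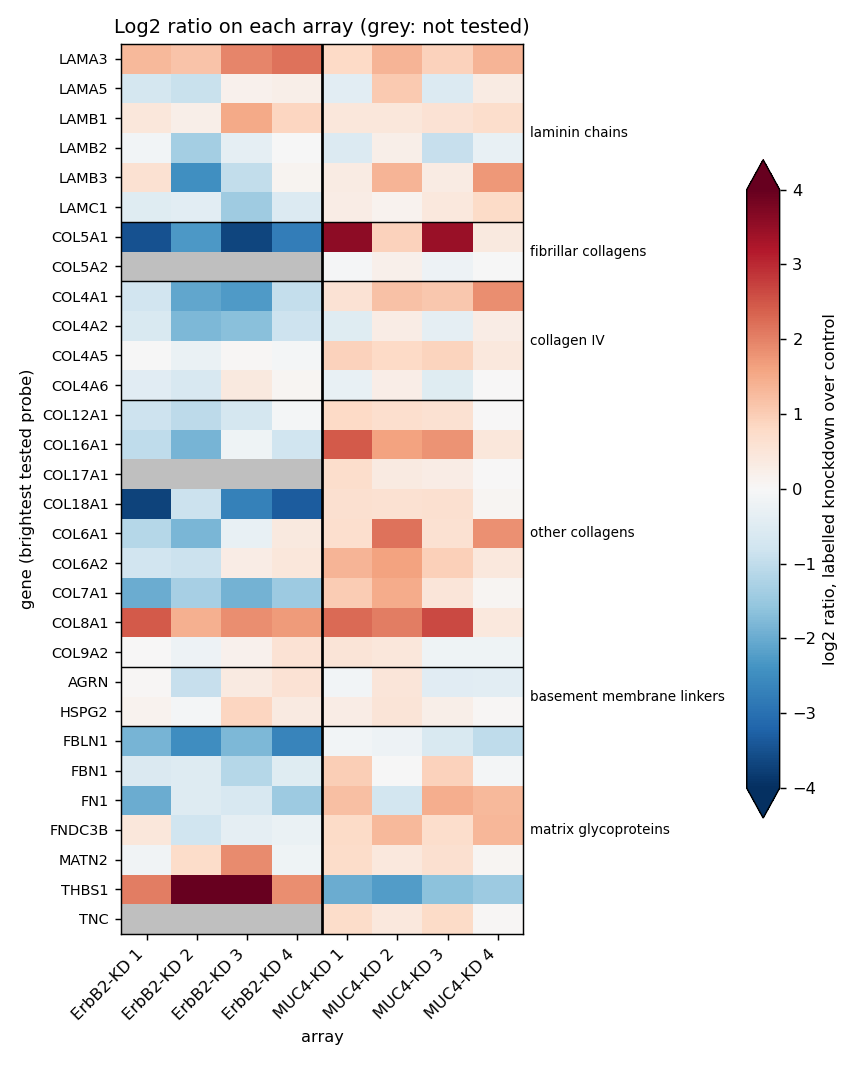
Log2 ratio, labelled knockdown over control, of the 30 tested matrix genes (rows, in 6 groups by role) on the 8 arrays (columns). Red is higher and blue lower than the control, grey was not tested. COL5A1, COL7A1, COL18A1 and FBLN1 are blue on all ErbB2-KD arrays, THBS1 is red there and blue on all MUC4-KD arrays, and the median is lowest on array 4 in MUC4-KD (0.20).

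Of the 6 tested laminin chains, 2 had a mean above 0 in ErbB2-KD and 5 did in the RNA labelled MUC4-KD. LAMA3, the alpha-3 chain of the epithelial laminin-332 that anchors hemidesmosomes, was higher in both experiments as labelled, by its brightest probe. LAMB3, its beta partner, did not pass in either. Both genes held an AP-1 element in the 250 bases before a transcription start, shown here with the element in capitals because no other matrix gene with a promoter sequence had a match. The motif searched was TGANTCA on either strand, which the complementary strand reads as the same motif. Of 32 matrix genes with a promoter sequence, LAMA3 and LAMB3 held it, and 6.57% of all 35116 promoters did. The sequences are those of RefSeq (GRCh38.p14), LAMA3 on the plus strand at chr18:23872770-23873019 and LAMB3 on the minus strand at chr1:209651375-209651624, before the only one of its listed starts with a match.
LAMA3: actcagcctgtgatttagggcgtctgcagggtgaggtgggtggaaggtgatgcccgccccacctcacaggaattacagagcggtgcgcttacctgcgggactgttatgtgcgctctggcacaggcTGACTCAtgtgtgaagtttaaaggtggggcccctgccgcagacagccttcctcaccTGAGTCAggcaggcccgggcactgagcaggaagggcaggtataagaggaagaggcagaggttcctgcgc
LAMB3: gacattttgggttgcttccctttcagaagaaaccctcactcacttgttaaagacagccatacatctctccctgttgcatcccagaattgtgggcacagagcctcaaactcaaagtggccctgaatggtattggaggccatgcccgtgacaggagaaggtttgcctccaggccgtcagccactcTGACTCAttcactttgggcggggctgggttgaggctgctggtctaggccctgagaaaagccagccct
The match of letters is a description and does not show that a factor was bound in these cells. For both genes a start with a match was chosen. Whether the transcripts read by the LAMA3 probes begin at the printed start was not examined.

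LAMA3 had log2 ratios of 1.31, 1.14, 1.94 and 2.17 on the ErbB2-KD arrays, a mean of 1.64 ± 0.49 (SD, n = 4), or 3.12-fold higher than NT (limma adjusted p = 0.0281). As labelled, the MUC4-KD arrays gave 0.81, 1.36, 0.94 and 1.35, a mean of 1.12 ± 0.28 (limma adjusted p = 0.00862). All 8 arrays lay above 0, and the experiments differed by -0.52 ± 0.26 (SE, limma adjusted p = 0.216). The call in ErbB2-KD passed in 1 of the 4 fits that left out an array, where its adjusted p reached 0.154. Its dimmer probe A_24_P687302 was higher on 4 of 4 arrays in both experiments and passed in neither (0.72 and 0.70). The dimmest probe, annotated to another LAMA3 transcript, was at 0.25 in ErbB2-KD without passing (limma adjusted p = 0.374). It was at 0.07 in MUC4-KD, where it was not tested. LAMB3 diverged between arrays, with 0.62, -2.46, -0.97 and 0.12 in ErbB2-KD and 0.34, 1.34, 0.33 and 1.74 in the RNA labelled MUC4-KD. Its mean of -0.67 ± 1.37 in ErbB2-KD was smaller than its spread (limma adjusted p = 0.537), and its mean of 0.94 ± 0.71 in MUC4-KD just missed the threshold (0.0554).

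LAMB1, the beta-1 chain of the broadly expressed laminins, was at 0.44, 0.45, 0.58 and 0.71 on the MUC4-KD arrays, the smallest spread of the called matrix genes (mean 0.55 ± 0.13, limma adjusted p = 0.0255, or 0.0604 with arrays 1 and 3, and 2 and 4, averaged as if dye swaps). In ErbB2-KD its values of 0.44, 0.24, 1.51 and 0.84 were also all above 0 and did not pass (limma adjusted p = 0.160). LAMC1, the gamma-1 chain found in most laminins, went the other way in ErbB2-KD. It was at -0.48, -0.42, -1.42 and -0.56 there and at 0.31, 0.15, 0.41 and 0.76 in the RNA labelled MUC4-KD. Neither mean passed, and the difference between the experiments did (1.13 ± 0.25 SE, limma adjusted p = 0.0262). LAMA5 and LAMB2, which pair in the laminins of mature basement membranes, had means from -0.46 to 0.10 and passed nowhere.

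Collagen IV genes lie in head-to-head pairs that share the sequence between their starts. By their brightest probes, members of a pair did not move alike in MUC4-KD. COL4A1 and COL4A2 encode the chains of the common collagen IV trimer, and COL4A5 and COL4A6 are chains of more restricted basement membranes. COL4A1 starts at position 110307157 of chromosome 13 on the minus strand and COL4A2 at 110307284 on the plus strand, with 126 bases between them. COL4A6 starts at 108439458 on chromosome X (the farther upstream of its 2 listed starts) and COL4A5 at 108439838, with 379 bases between them. The whole stretch between COL4A1 and COL4A2 (chr13:110307158-110307283) and the 250 bases before COL4A5 (chrX:108439588-108439837) are printed on the plus strand from RefSeq (GRCh38.p14), with the motifs CCAAT (also as its complement) and GGGCGG in capitals. They are shown because 1 short sequence serves both genes of a pair.
COL4A1 and COL4A2: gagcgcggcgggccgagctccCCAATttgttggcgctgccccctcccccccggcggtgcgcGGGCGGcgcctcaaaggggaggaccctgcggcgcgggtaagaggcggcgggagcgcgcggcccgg
COL4A5: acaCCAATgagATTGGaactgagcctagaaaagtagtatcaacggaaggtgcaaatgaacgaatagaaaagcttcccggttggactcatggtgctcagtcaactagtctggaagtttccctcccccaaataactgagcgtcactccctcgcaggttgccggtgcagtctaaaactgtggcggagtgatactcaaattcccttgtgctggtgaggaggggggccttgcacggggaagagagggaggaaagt
CCAAT was found in 32.0% of all promoters of 250 bases and in 21.1% of stretches of 126 bases before a start, on either strand, and GGGCGG in 42.6% and 34.6%.

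COL4A1 was at -0.76, -2.07, -2.26 and -0.94 on the ErbB2-KD arrays and at 0.58, 1.16, 1.08 and 1.86 on those of MUC4-KD. The groups do not overlap, with every ErbB2-KD clone below its control and every MUC4-KD array above it. The mean of 1.17 ± 0.53 in the RNA labelled MUC4-KD passed (SD, n = 4, limma adjusted p = 0.0202), that of -1.51 ± 0.76 in ErbB2-KD did not (0.0707), and the difference of 2.68 ± 0.39 (SE) passed (0.00724). The dimmer COL4A1 probe A_24_P68342 had the same signs on all 8 arrays at a smaller size (-0.44 and 0.15) and passed in neither. Its difference did not pass (0.59, limma adjusted p = 0.0752). COL4A2 followed COL4A1 in ErbB2-KD, with -0.61, -1.79, -1.67 and -0.84 (mean -1.23 ± 0.59, limma adjusted p = 0.0693). It did not follow on the MUC4-KD arrays, where it was at -0.49, 0.29, -0.35 and 0.30. The mean there was -0.06 ± 0.41, and it was 0.18 with median centring.

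Within an array, COL4A1 exceeded COL4A2 by 1.06, 0.88, 1.43 and 1.56 in the RNA labelled MUC4-KD (mean 1.23 ± 0.31, n = 4). In ErbB2-KD the same subtraction gave -0.15, -0.28, -0.58 and -0.11. Both were one-sided on 4 of 4 arrays, which gives the smallest p that an exact two-sided sign-flip test of 4 arrays allows, 0.125. These values rest on the brightest probes. The dimmer COL4A1 probe lay below COL4A2 on MUC4-KD array 4 (0.04 against 0.30) and above it on 4 of 4 ErbB2-KD arrays. COL4A5 was steady in ErbB2-KD (-0.03, -0.25, 0.04 and -0.08) and higher on 4 of 4 arrays as labelled in MUC4-KD (0.93, 0.80, 0.90 and 0.42, mean 0.76 ± 0.24, limma adjusted p = 0.0178). The difference between the experiments was 0.84 ± 0.16 (SE, limma adjusted p = 0.0170). The dimmer COL4A5 probe A_24_P290153 was also above 0 on 4 of 4 MUC4-KD arrays. It passed neither there (0.38, limma adjusted p = 0.0868) nor for the difference (0.54, 0.0694). COL4A6 stayed near 0, with means of -0.16 and -0.12. By the brightest probes COL4A5 thus exceeded COL4A6 on 4 of 4 MUC4-KD arrays by a mean of 0.89 ± 0.50 and on 2 of 4 in ErbB2-KD. On MUC4-KD array 4 the dimmer COL4A5 probe, at 0.02, did not exceed COL4A6, at 0.03.

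**Figure D3:**
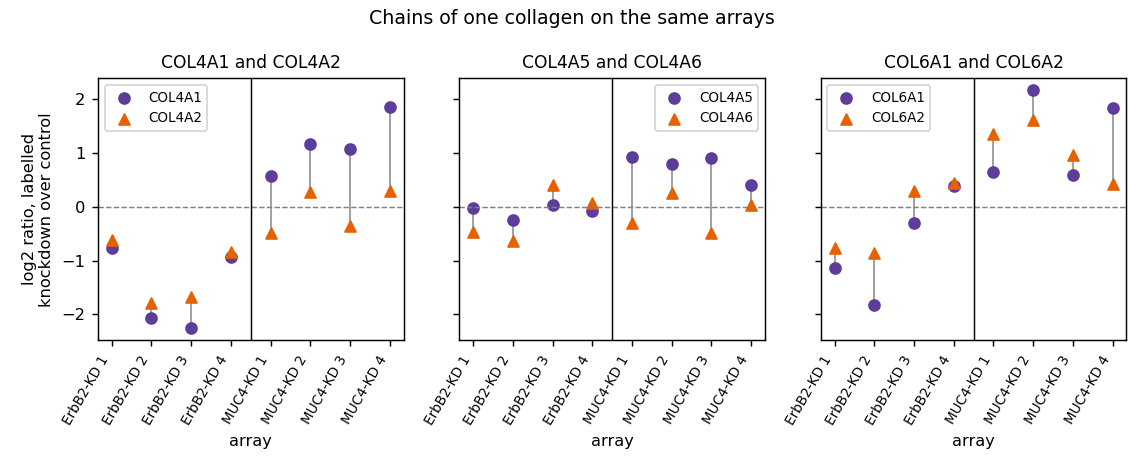
Log2 ratio, labelled knockdown over control, of 3 pairs of collagen chains on each of the 8 arrays, by the brightest tested probe of each gene. A grey line joins the chains measured on the same array. COL4A1 and COL4A2 lie below 0 together on the ErbB2-KD arrays (mean difference -0.28) and part on the MUC4-KD arrays (1.23), COL4A5 lies above COL4A6 on all MUC4-KD arrays, and COL6A1 and COL6A2 change order from array to array there.

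COL5A1, a chain of the collagen V that starts and limits the width of fibrils, had the widest gap between the experiments of any collagen tested. In ErbB2-KD its log2 ratios were -3.47, -2.30, -3.67 and -2.77, a mean of -3.05 ± 0.63 or 8.31-fold lower than in NT (limma adjusted p = 0.0141). It was at 3.59, 0.92, 3.46 and 0.39 on the MUC4-KD arrays, high on arrays 1 and 3 and low on arrays 2 and 4, so that a mean of 2.09 ± 1.67 did not pass (limma adjusted p = 0.0546). All ErbB2-KD arrays lay below all MUC4-KD arrays, with a difference of 5.14 ± 0.73 (SE, limma adjusted p = 0.00632). The other probe (A_23_P83818) was not well above background in ErbB2-KD on any array and was at least 2.82-fold lower than in NT (limma adjusted p = 0.0352). Feature Extraction's own ratios, which carry no offset, put COL5A1 at -4.92 in ErbB2-KD. COL5A2, the partner chain, was dim and at -0.01 ± 0.17 in the RNA labelled MUC4-KD. Without array 1 or 3 of ErbB2-KD the fall of COL5A1 kept its sign and lost its call, with an adjusted p of up to 0.0770.

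Among the other collagens all 9 tested genes had a mean above 0 in the RNA labelled MUC4-KD, and 4 passed, where 23.1% of all genes did. In ErbB2-KD 6 of 8 had a mean below 0, with 1 passing in each direction (1.94% of all genes passed). COL7A1, the anchoring fibril collagen that fastens the epithelial basement membrane to the stroma, fell to -1.99, -1.33, -1.89 and -1.45 in ErbB2-KD (mean -1.66 ± 0.32, or 3.17-fold lower, limma adjusted p = 0.0168). As labelled, MUC4-KD gave 1.01, 1.47, 0.47 and 0.07 (mean 0.76 ± 0.61, limma adjusted p = 0.0674). The difference of 2.42 ± 0.30 (SE) passed (limma adjusted p = 0.00417), and with the MUC4-KD sign turned it was 0.91 (0.0682).

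COL8A1, a short-chain collagen of vessel walls and membranes, was the only one of the tested collagens that passed above 0 in ErbB2-KD. Its values were 2.45, 1.42, 1.87 and 1.70 there (mean 1.86 ± 0.44, limma adjusted p = 0.0216) and 2.28, 2.05, 2.64 and 0.41 in the RNA labelled MUC4-KD (mean 1.84 ± 0.99, 0.0244). All 8 arrays were above 0 and array 4 of MUC4-KD stood lowest. The difference was -0.01 ± 0.45 (SE, limma adjusted p = 0.987). With the MUC4-KD sign as labelled, it took either sign under the alternatives, from -0.28 to 0.46. The rise in ErbB2-KD and the higher level in MUC4-KD were each called in 1 of the 4 fits that left out an array.

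COL16A1 and COL12A1 are fibril-associated collagens that sit on the surface of fibres. COL16A1 was at 2.47, 1.61, 1.80 and 0.46 on the MUC4-KD arrays (mean 1.58 ± 0.84, limma adjusted p = 0.0244). In ErbB2-KD it was below 0 on 4 of 4 arrays, from -1.87 to -0.18, without passing (0.146), and the difference was 2.55 ± 0.45 (SE, 0.0132). COL12A1 had the same pattern at a smaller size, with means of -0.67 ± 0.41 and 0.53 ± 0.36 of which neither passed, and a difference of 1.20 ± 0.25 (SE, limma adjusted p = 0.0227). Its other probe gave means of 0.04 and 0.27 and no call.

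COL18A1 carries the endostatin fragment at its end and is a collagen of epithelial and vascular basement membranes. It was at -3.70, -0.87, -2.71 and -3.34 in ErbB2-KD, with clone EV12 on array 2 apart from the other 3, and the mean of -2.65 ± 1.26 just missed the threshold (limma adjusted p = 0.0587). Leaving out an array gave from 0.0103 without array 2 to 0.267 without array 3, a call in 1 of 4 fits. The MUC4-KD arrays gave 0.65, 0.60, 0.63 and 0.09 (mean 0.49 ± 0.27, limma adjusted p = 0.0520). The difference of 3.15 ± 0.53 (SE) passed (0.0114), as did that of the other probe (1.13, 0.0193).

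Collagen VI chains, which form beaded microfibrils around cells, were above Mock by their brightest probes on 4 of 4 arrays labelled MUC4-KD and varied between those arrays. COL6A1 was at 0.66, 2.17, 0.60 and 1.83, high on arrays 2 and 4 (mean 1.31 ± 0.80, limma adjusted p = 0.0340, or 0.0627 with the arrays averaged as above), and COL6A2 at 1.36, 1.61, 0.96 and 0.43 (mean 1.09 ± 0.52, limma adjusted p = 0.0226). In ErbB2-KD COL6A1 ran from -1.83 to 0.39 and COL6A2 from -0.86 to 0.44, and neither passed. The difference between the experiments passed for COL6A1 (2.03 ± 0.52 SE, limma adjusted p = 0.0416) and for the dimmer COL6A2 probe (1.63, 0.0493), while the brighter COL6A2 probe was just outside (1.31, 0.0525) and the dimmer COL6A1 probe did not pass (0.37, 0.173). In MUC4-KD alone neither dimmer probe passed (COL6A2 0.58, limma adjusted p = 0.199, above 0 on 3 of 4 arrays, and COL6A1 0.33, 0.111). COL9A2 and COL17A1 had MUC4-KD means of 0.15 and 0.33 without a call.

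Of the linkers between laminin and collagen IV, HSPG2 (perlecan) and AGRN (agrin) could be tested. HSPG2 had means of 0.33 ± 0.40 and 0.27 ± 0.19 and AGRN means of 0.01 ± 0.66 and -0.13 ± 0.43, in ErbB2-KD and MUC4-KD in that order. Neither passed in either experiment or for the difference.

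As labelled, THBS1 was the matrix gene whose difference between the experiments passed below 0. It encodes thrombospondin-1, which binds CD47 and can activate latent TGF-beta. In ErbB2-KD its log2 ratios were 2.03, 5.93, 4.47 and 1.86, higher on every array and highest on arrays 2 and 3 (clones EV12 and EV9). The mean of 3.57 ± 1.97 did not pass (limma adjusted p = 0.0762). On the MUC4-KD arrays it was at -1.97, -2.23, -1.66 and -1.46, a mean of -1.83 ± 0.34 or 3.55-fold lower as labelled (limma adjusted p = 0.00364). The experiments differed by -5.40 ± 0.81 (SE, limma adjusted p = 0.00760), and its second probe gave 2.54 and -1.25 with a difference of -3.79 (0.00740). With the MUC4-KD sign turned the difference of THBS1 was -1.74 and did not pass (0.161). THBS1 in MUC4-KD was called in 4 of 4 fits that left out an array.

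FBLN1 (fibulin-1), which binds fibronectin and laminin in fibres and basement membranes, fell to -1.86, -2.50, -1.81 and -2.63 in ErbB2-KD, a mean of -2.20 ± 0.43 or 4.59-fold lower (limma adjusted p = 0.0146). The second FBLN1 probe also passed at -1.39 (0.0228). Its MUC4-KD values of -0.10, -0.19, -0.62 and -1.03 lay below 0 as well and did not pass (0.0992), which left a difference of 1.72 ± 0.27 (SE, 0.00896). FN1 (fibronectin) was lower on 4 of 4 ErbB2-KD arrays, with -1.98, -0.51, -0.64 and -1.45 (mean -1.14 ± 0.69, limma adjusted p = 0.107). As labelled it was at 1.20, -0.74, 1.45 and 1.29 in MUC4-KD, where array 2 stood apart from the others. The difference of 1.94 ± 0.51 (SE) was near the threshold (limma adjusted p = 0.0457), and both other FN1 probes had the same signs without a call for the difference (1.48, 0.0527, and 1.59, 0.171).

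FNDC3B, which spans a membrane and carries fibronectin type III repeats, was at 0.75, 1.29, 0.69 and 1.32 on the MUC4-KD arrays (mean 1.01 ± 0.34, limma adjusted p = 0.0133) and between -0.78 and 0.47 in ErbB2-KD, with a difference of 1.25 ± 0.28 (SE, 0.0269). The other FNDC3B probe passed neither in MUC4-KD (0.34, limma adjusted p = 0.196) nor for the difference (0.18, 0.667). FBN1 (fibrillin-1, the core of elastic microfibrils) passed for the difference only (1.13 ± 0.29 SE, limma adjusted p = 0.0431), with -0.58, -0.50, -1.15 and -0.48 in ErbB2-KD and 1.00, -0.01, 0.92 and -0.08 in MUC4-KD. MATN2 and TNC, a matrilin and the adhesion-modulating tenascin-C, had MUC4-KD means of 0.47 and 0.50 without a call. TNC, which was dim, reached 1.91 in Feature Extraction's own ratios.

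**Figure D4:**
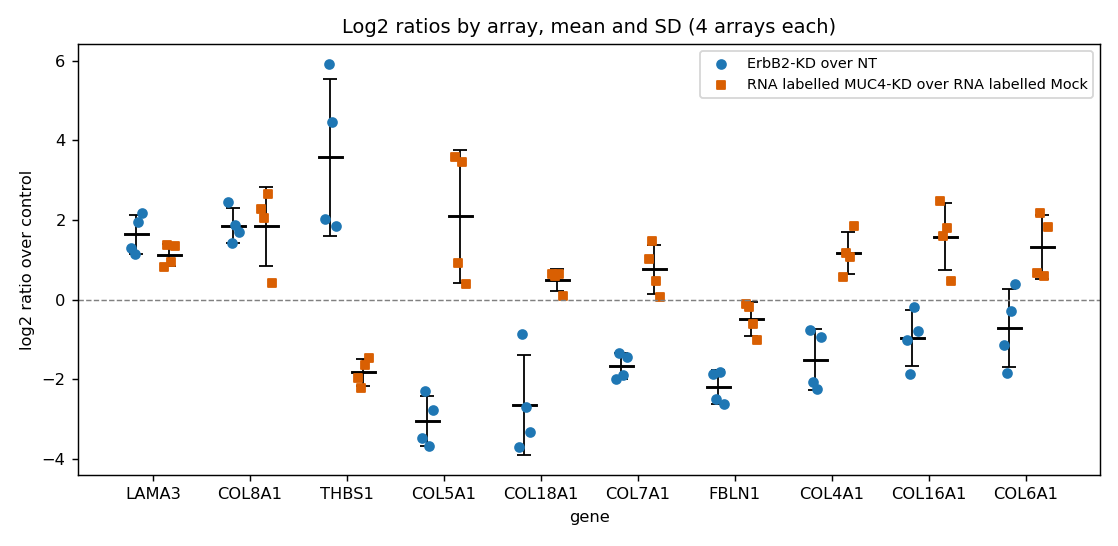
Log2 ratio over control of 10 matrix genes on the 4 ErbB2-KD arrays (blue circles) and the 4 MUC4-KD arrays as labelled (orange squares), with bars for the mean and SD. LAMA3 and COL8A1 lie above 0 in both experiments, THBS1 is above 0 in ErbB2-KD and below 0 in MUC4-KD, and the other genes lie lower in ErbB2-KD than in MUC4-KD.

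The difference between the experiments, which share no control pool, was tested directly over the 8 arrays. It passed for 15 of the 30 matrix genes, where 11.4% of all genes did. These shares, too, describe a list chosen with earlier results of these data known. Of the 15, 14 had a higher ratio as labelled in MUC4-KD than in ErbB2-KD (6.59% of all genes did), and THBS1 had a lower one (4.81%). The 14 were LAMC1, COL5A1, 3 of the 4 collagen IV genes (COL4A1, COL4A2 and COL4A5), COL6A1, COL7A1, COL12A1, COL16A1, COL18A1, FN1, FNDC3B, FBN1 and FBLN1. Each of the 15 differed in the same direction on all 3 slides, which held arrays of both experiments. The 15 were called on these same arrays, so this agreement adds no support of its own. LAMB3, COL6A2 and TNC, not called by their brightest probes, also agreed on all 3 slides. The count of matrix probes called was 20 of 46 (9.91% of all probes) and fell to 9 without MUC4-KD array 1 or without array 3, and to 3 with median centring. Over all probes the count was 2559, and it fell to 822 without MUC4-KD array 1, 638 without array 3 and 117 with median centring. COL5A1, COL7A1, COL4A1, COL18A1, FBLN1 and THBS1 were called in 8 of 8 fits that left out an array. COL16A1 was called in 7, COL4A5 in 6, LAMC1 in 5, COL12A1 and FNDC3B in 3, and COL4A2, COL6A1, FN1 and FBN1 in 1 of the 8. The test takes 1 spread per probe for both experiments, and on simulated data with a spread of its own in each it made more false calls than its nominal share.

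The direction of the MUC4-KD ratios bears on this count. With their sign turned, 11 of the 46 probes passed, 5 higher and 6 lower, beside 17.2% of all probes, where 18 higher and 2 lower had passed as labelled. Turned, COL8A1 differed by -3.70 (limma adjusted p = 0.00192), LAMA3 by -2.76 (0.000837) and LAMB1 by -1.30 (0.0131), which had not differed as labelled. COL5A1 no longer did (0.96, 0.378), nor did COL4A1 (0.34, 0.573), COL7A1 (0.91, 0.0682) or THBS1 (-1.74, 0.161). LAMC1, COL6A1, COL12A1, COL16A1, FN1, FNDC3B and FBN1 also lost their call, at a limma adjusted p from 0.0818 to 0.710. The differences of COL18A1 (2.16, limma adjusted p = 0.0260), COL4A2 (1.29, 0.0251) and FBLN1 (2.68, 0.00101) kept their sign and passed in either direction, and that of COL4A5 changed sign (-0.68, 0.0233).

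**Figure D5:**
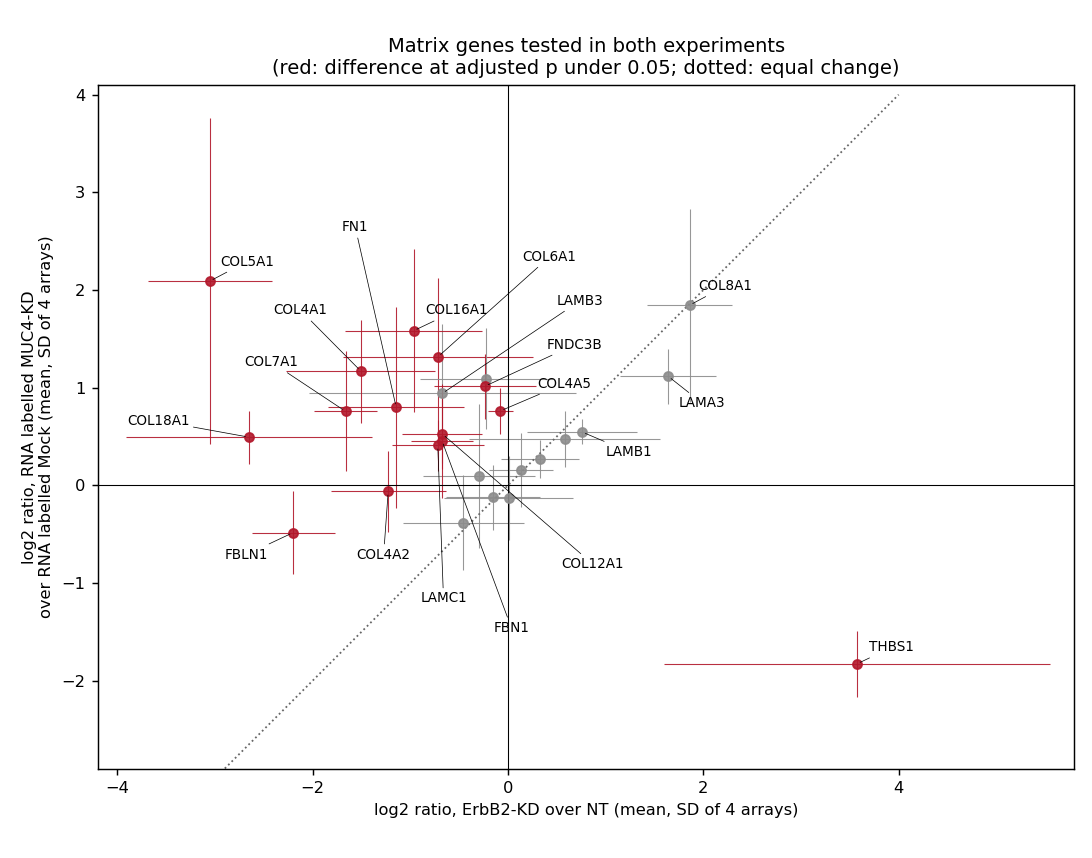
Mean log2 ratio of the 27 matrix genes tested in both experiments, ErbB2-KD over NT on the x axis and labelled MUC4-KD over labelled Mock on the y axis, with bars of 1 SD over 4 arrays. Red genes passed the test of the difference. The 14 with a positive difference lie above the dotted line of equal change and THBS1 lies below it, while COL8A1, LAMA3 and LAMB1 lie near the line.

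Matrix genes, each by its brightest probe, had a higher median SD between arrays of 1 experiment than all probes tested. Their median SD over 4 arrays was 0.57 in ErbB2-KD and 0.40 in MUC4-KD, beside 0.30 and 0.28 over all probes tested. A single direction on 4 of 4 arrays was seen for 16 of 27 genes in ErbB2-KD and for 21 of 30 in MUC4-KD, beside 27.4% and 49.5% of all probes. Both comparisons set the brightest probe of a gene beside all tested probes, and the normexp offset shrinks the ratios of dim probes. Whether matrix genes differ from probes of like brightness was not tested. Over the 27 genes, Pearson's r between 2 ErbB2-KD arrays ran from 0.61 to 0.91. Between MUC4-KD arrays it ran from 0.36 to 0.96, highest for arrays 1 and 3, where COL5A1 and FBN1 were high. It was 0.60 for arrays 2 and 4, where COL6A1, LAMB3 and FNDC3B were high, and 0.58 for arrays 1 and 2. Over all probes arrays 1 and 2 were the most alike (0.83), and arrays 2 and 4 were at 0.36. These r values are across genes of arrays that share a control pool. The labels do not say whether any of these arrays hold the same clone. The paper's methods describe 4 MUC4-KD clones and do not say which array holds which.

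Other genes of the matrix pathway were counted from 4 lists, also chosen with earlier results of these data known. Of the genes that process and crosslink collagen, 1 of 23 passed in ErbB2-KD and 9 of 22 in MUC4-KD (1.94% and 23.1% of all genes did), 5 of them higher and 4 lower as labelled. LOX and LOXL2, which crosslink collagen outside the cell, were at 2.85 ± 1.41 (SD, n = 4, limma adjusted p = 0.0194) and 1.81 ± 0.99 (0.0254) in the RNA labelled MUC4-KD. P4HA1 and P4HA2, the catalytic subunits of prolyl 4-hydroxylase, were at 1.90 ± 0.70 (0.0112) and 1.57 ± 0.42 (0.00685). LOXL1 was the gene that passed in ErbB2-KD (0.92 ± 0.20, 0.0360). Of other collagen and laminin chains 0 of 6 passed in ErbB2-KD by limma (2 had an unadjusted p under 0.05) and 2 of 7 in MUC4-KD, beside the same shares. LAMA2, the alpha chain of the laminin of muscle basement membranes, was lower as labelled (-1.52 ± 0.93, limma adjusted p = 0.0331).

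Of other matrix glycoproteins and proteoglycans, 1 of 22 passed in ErbB2-KD and 3 of 26 in MUC4-KD, the latter a smaller share than the 23.1% of all genes. ECM1, a secreted glycoprotein of skin and vessels, passed in opposite directions (1.74 ± 0.28, limma adjusted p = 0.0141, and -0.78 ± 0.47, 0.0404). Of the matrix receptors other than integrins, 1 of 11 passed in ErbB2-KD and 5 of 11 in MUC4-KD, all 5 higher as labelled, beside 1.94% of all genes passing in the former and 12.2% passing as higher in the latter. DDR1, a collagen receptor kinase, fell in ErbB2-KD (-0.83 ± 0.18, limma adjusted p = 0.0397). It was higher in the RNA labelled MUC4-KD (0.63 ± 0.20, 0.0242) and passed for the difference (1.45, 0.00262). The hyaluronan receptor CD44 was higher in the RNA labelled MUC4-KD (1.74 ± 0.07, limma adjusted p = 0.00200), as was CD47, the thrombospondin receptor (1.56 ± 0.44, 0.00748).

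Fibroblast markers were read beside these results, since fibroblasts are the usual source of matrix. Of the 10 markers 3 (ACTA2, THY1 and FAP) were well above background in all 16 channels, and PDGFRB, DCN and PDPN were in none. The summed intensity of the 10 markers was 4810 to 5830 on the arrays of MUC4-KD as labelled and 3370 to 4250 in Mock, and 3310 to 5560 in ErbB2-KD and 3420 to 4220 in NT. FAP (0.96, limma adjusted p = 0.0130) and ACTA2 (0.57, 0.0469) passed above 0 in MUC4-KD as labelled. Their part in the matrix values was not tested.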

How the data were processed

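Per the labels and file headers, RNA labelled with Cy3 or Cy5 was hybridised to human 44K arrays, and the authors deposited the output of Agilent Feature Extraction 10.5.1.1: the median spot and background intensity of each channel and log10 ratios, Cy5 over Cy3. A deposited table of log10 ratios equals these ratios turned to labelled knockdown over control and was not used separately. In R 4.3.3 with limma 3.58.1, intensities were background-corrected (normexp, offset 50) and normalized by loess within each array, control and outlier spots having no weight. Spots of a probe were averaged (41000 probes), and ratios were turned to knockdown over control by the labelled dyes, balanced 2 and 2 in each experiment. Probes well above background on 4 of 4 arrays in either channel were tested (23869 in ErbB2-KD, 25047 in MUC4-KD, 25835 for the difference), two-sided, with lmFit and eBayes and Benjamini-Hochberg adjustment over all of them. The brightest tested probe stood for a gene.

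Of the probes, 25398 were given a symbol through the accession and 15602 were not. The members and lists were chosen with earlier results of these data known. Values are given per array, or as a range or mean, for members that passed in either experiment or for the difference. The same holds for COL8A1, FNDC3B, LAMA3, LAMB3 and FN1, while SPP1 is given by its detection alone. Means are given for up to 4 genes per pathway list and experiment, the largest changes first, and for DDR1 in both experiments. The normexp offset shrinks ratios of dim probes. The fits were tested on simulated data, where that of the difference exceeded its nominal share of false calls, and precision is limited by the number of arrays. The array design used an hg18 annotation, of which no coordinates are printed; promoters are RefSeq's. Alternatives were another offset, the Feature Extraction ratios, median centring, other filters, a dye term, an intensity trend, 1 fit over 8 arrays, a replicate block, slide as a block, the methods' t-test, a turned sign, and leaving out each array. The values of 1 gene of the pathway lists are not reported here.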

Additional observations from a re-analysis of the deposited data

Results flagged for a closer look

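By Dixon's test 4 values stood apart from the 3 other arrays of their experiment; the test flags about 1 in 20 groups of 4 by chance. They were LAMC1 on ErbB2-KD array 3 (-1.42), FBN1 on ErbB2-KD array 3 (-1.15), COL18A1 on MUC4-KD array 4 (0.087) and FN1 on MUC4-KD array 2 (-0.74). ErbB2-KD array 3 holds clone EV9, and MUC4-KD array 4 had the lowest share of probes well above background.

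The change differed between the knockdowns, MUC4-KD as labelled minus ErbB2-KD, for 15 genes by limma over 8 arrays. The log2 differences were 5.14 for COL5A1, 3.15 for COL18A1, 2.68 for COL4A1, 2.55 for COL16A1, 2.42 for COL7A1, 2.03 for COL6A1, 1.94 for FN1, 1.72 for FBLN1, 1.25 for FNDC3B, 1.20 for COL12A1, 1.16 for COL4A2, 1.13 for both LAMC1 and FBN1, 0.84 for COL4A5 and -5.40 for THBS1.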

How the results depend on the processing

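Turning the MUC4-KD sign reverses every MUC4-KD mean, and the differences of LAMB3, COL4A5, COL6A1, COL6A2, COL16A1 and FNDC3B then changed sign. Under the other alternatives the means of the named genes kept their sign in every experiment except for COL4A2 in MUC4-KD (0.18 with median centring, and from -0.18 to 0.079 without 1 array, above 0 without array 1 or 3 (0.032), against -0.06). The differences of LAMB1 and COL8A1, which had not passed, also changed sign. That of LAMB1 became 0.031 with median centring and lay between -0.38 and 0.039 without 1 array, above 0 without ErbB2-KD array 3. That of COL8A1 became 0.10 with an offset of 10, 0.46 with the Feature Extraction ratios and 0.067 with median centring, and lay between -0.28 and 0.46 without 1 array, above 0 without ErbB2-KD array 1 (0.18) or MUC4-KD array 4.

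Counts here are of all matrix probes called under a setting, which need not be the same probes, unless given as over all probes. In ErbB2-KD limma called 7 of 43, and it called 1 with median centring, 0 with no filter on dim probes (26 at an unadjusted p under 0.05), 0 with an intensity trend (24), 13 in 1 fit over 8 arrays, 15 with slide as a fixed block, an alternative chosen after seeing the data, and 0 by the methods' t-test after adjustment (18 unadjusted, 4 at the methods' fold of 5 with an unadjusted p). Leaving out 1 array gave 0 to 9. Over all probes the methods' t-test called 0 in ErbB2-KD after adjustment and limma called 342. Limma called 31 of all probes with median centring, 50 with no filter and 0 with an intensity trend. It called 1121 in 1 fit over 8 arrays, 1061 with slide as a fixed block, and 0 to 487 without 1 array. In MUC4-KD it called 11 of 45, and 18 were called with the Feature Extraction ratios, 0 with median centring (6 unadjusted), 6 with no filter, and 0 by the methods' t-test after adjustment (13 unadjusted) and 0 at its fold. Leaving out 1 array gave 1 to 22. Over all probes 5131 were called in MUC4-KD, 7048 with the Feature Extraction ratios, 1 with median centring and 2930 with no filter. The methods' t-test called 106 of all probes after adjustment, and leaving out 1 array gave 154 to 9347. With MUC4-KD arrays 1 and 3, and 2 and 4, averaged as if they were dye swaps, 11 matrix probes were called, and 3595 over all probes. LAMB1 and COL6A1 were then lost and COL7A1 was gained (limma adjusted p = 0.0351). For the difference limma called 20 of 46, and 3 were called with median centring, 11 with the MUC4-KD sign turned, and 9 to 20 without 1 array. Over all probes it called 2559, and 117, 4433 and 638 to 5060 in that order. With the replicate number as a block 8 matrix probes were called, and 584 over all probes. The numbers do not pair the arrays, since deviations of same-numbered arrays correlated at -0.24 to -0.05. The median of the matrix genes was 0.73 in MUC4-KD with the Feature Extraction ratios and, without 1 array, -0.61 to -0.10 in ErbB2-KD. Calls therefore depended on the loess curve and on single arrays, and the causes were not tested. Slide as a random block was not run because its correlation could not be estimated from 3 slides.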
